A study of Mus musculus with 18 samples.

Results

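The transforming growth factor beta (TGF-beta) genes described here are the ligands Tgfb1, Tgfb2 and Tgfb3, the receptors Tgfbr1, Tgfbr2 and Tgfbr3, and the target gene Tgfbi. They were taken as every probe set whose single gene symbol in the platform annotation is one of these 7 names, which gave 9 of the 12488 probe sets on the array and 7 of 8251 genes named by a single symbol, with Tgfb3 and Tgfbi measured by 2 probe sets each. That rule used names and no measured value, but the names were chosen with earlier results of these data known. The series holds 18 Affymetrix arrays of total RNA from extraocular muscle, leg muscle and heart muscle of mice labelled dKO or MDX (control), written dko and mdx here, with 3 arrays in each of the 6 groups, all at 8 weeks of age. By general usage mdx mice lack dystrophin, the protein that ties the muscle cytoskeleton to the membrane, and double knockout (dko) mice also lack utrophin, a related protein. Alleles, strain and sex are not in the labels. Both genotypes are then dystrophic, and no wild-type muscle was analysed here. It is not stated that the 3 arrays of a group are 3 animals; a p-value here covers the spread among arrays, which may be technical.

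TGF-beta ligands are secreted in a latent complex that is bound to the extracellular matrix, and must be released before they can signal. An active ligand binds TGFBR2, which recruits and phosphorylates TGFBR1, the kinase that activates SMAD2 and SMAD3. TGFBR3, or betaglycan, is a co-receptor that presents ligand, TGF-beta 2 above all. In dystrophic muscle the pathway is known for driving fibroblasts to deposit matrix and for restraining the regeneration of muscle fibres. TGFBI is a matrix protein that was named for its induction by TGF-beta.

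The promoter sequences are shown for Tgfbi, the gene with the most calls between tissues, and for Tgfb1 and Tgfbr1, whose signals correlated over the 18 arrays. That correlation goes with a split described below, in which both genes read higher on every array numbered 3 than on all others. Shared regulation was not tested. Each sequence is the 250 bases before the annotated start, read 5′ to 3′ on the strand of the gene, from RefSeq on GRCm38.p6. The windows are chr13:56609336-56609585 on the plus strand for Tgfbi, chr7:25686752-25687001 on the plus strand for Tgfb1 and chr4:47352972-47353221 on the plus strand for Tgfbr1. Capitals mark matches on either strand to CAGAC, the core of the SMAD-bound CAGA box, to GGGCGG, the GC box, and to TATAAA, the TATA box.
Tgfbi promoter: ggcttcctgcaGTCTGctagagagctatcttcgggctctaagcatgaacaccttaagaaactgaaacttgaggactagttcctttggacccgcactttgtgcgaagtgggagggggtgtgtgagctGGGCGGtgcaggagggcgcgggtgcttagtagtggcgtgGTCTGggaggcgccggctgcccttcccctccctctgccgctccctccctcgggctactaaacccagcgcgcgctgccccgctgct
Tgfb1 promoter: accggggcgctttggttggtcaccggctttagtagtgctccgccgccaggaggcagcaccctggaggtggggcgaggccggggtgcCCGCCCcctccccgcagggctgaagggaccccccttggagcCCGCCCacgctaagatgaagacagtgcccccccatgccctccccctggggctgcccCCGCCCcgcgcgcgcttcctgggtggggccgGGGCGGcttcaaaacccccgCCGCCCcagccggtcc
Tgfbr1 promoter: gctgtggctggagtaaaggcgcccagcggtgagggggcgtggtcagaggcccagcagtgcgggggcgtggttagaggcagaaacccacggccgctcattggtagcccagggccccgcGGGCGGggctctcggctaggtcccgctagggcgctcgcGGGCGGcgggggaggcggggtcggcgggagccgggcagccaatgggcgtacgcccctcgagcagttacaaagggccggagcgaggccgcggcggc
The Tgfbi window holds 2 CAGAC matches and 1 GGGCGG match, and 62.4% of its bases are G or C. The Tgfb1 window holds 5 GGGCGG matches and none of CAGAC, with 75.2% G or C. In the Tgfbr1 window there are 2 GGGCGG matches, and 74.8% of the bases are G or C. The median over all mouse windows of this length was 52.4% G or C. A second annotated start of Tgfbr1 has 1 CAGAC match. Tgfb2 has 2 CAGAC matches and 1 TATAAA match, and Tgfbr2 has 1 CAGAC match. Among the 32851 mouse windows of this length, 42.2% hold CAGAC, 32.7% hold GGGCGG and 12.4% hold TATAAA; a match describes the letters of a window and no more. Windows were at hand for 5 of the 7 genes, and Tgfb3 and Tgfbr3 are named only.

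Values are the deposited probe set intensities, which are on a linear scale and nearly equal in trimmed mean on all arrays (1500.69 to 1501.15). Differences are on the scale of log2(intensity + 166.7), where the offset damps changes of dim probe sets. Between single arrays a fold on this scale is thus smaller than the ratio of the intensities. A fold between groups comes from means of log2 values and can exceed the ratio of the mean intensities. Of the 12422 probe sets that are not controls, 8888 passed a filter for brightness (above the 40th percentile of the array on at least 3 arrays) and were tested with limma. They included 1 probe set each of Tgfb1, Tgfb2, Tgfb3, Tgfbr1, Tgfbr3 and Tgfbi. The only probe set of Tgfbr2 and the second ones of Tgfb3 and Tgfbi did not pass. A gene is called where its p (two-sided) adjusted over all 8888 probe sets by Benjamini-Hochberg is under 0.05. Samples that share a number deviated together (correlations of 0.404 to 0.751 over 9 dko and mdx pairs), so a fit with the number as a block is given where it changes a call. The utrophin gene Utrn (probe set 92507_at) averaged 305 ± 99.4, 266 ± 29.8 and 258 ± 36.4 in dko extraocular muscle, leg and heart, against 748 ± 294, 494 ± 56.6 and 644 ± 48.5 in mdx (SD, n = 3 each), with no overlap in any tissue. A second Utrn probe set overlapped between the genotypes in leg and in no other tissue. Summed skeletal muscle markers lay between 31768 and 57010 on the heart arrays and between 137007 and 450973 on the others, and summed cardiac markers between 181757 and 491695 on the heart arrays against at most 52949 elsewhere, as the tissue labels say.

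The 6 arrays numbered 3 stand apart, and this decides how far Tgfb1 and Tgfbr1 can be read. Their median intensity was 526.2 to 574, against 615 to 672 on the other 12 arrays. For Tgfb1 and Tgfbr1, every array numbered 3 lay above all 12 others, a split shown by 3.61% of the probe sets tested. Tgfb1 passed the brightness filter through 6 arrays and Tgfbr1 through 4, all of them numbered 3, so their split is partly fixed by the filter. No member had all 6 of these arrays below the others, which 8.27% of the probe sets did. What sets the arrays numbered 3 apart was not tested, and the labels give only the number.

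**Figure D1:**
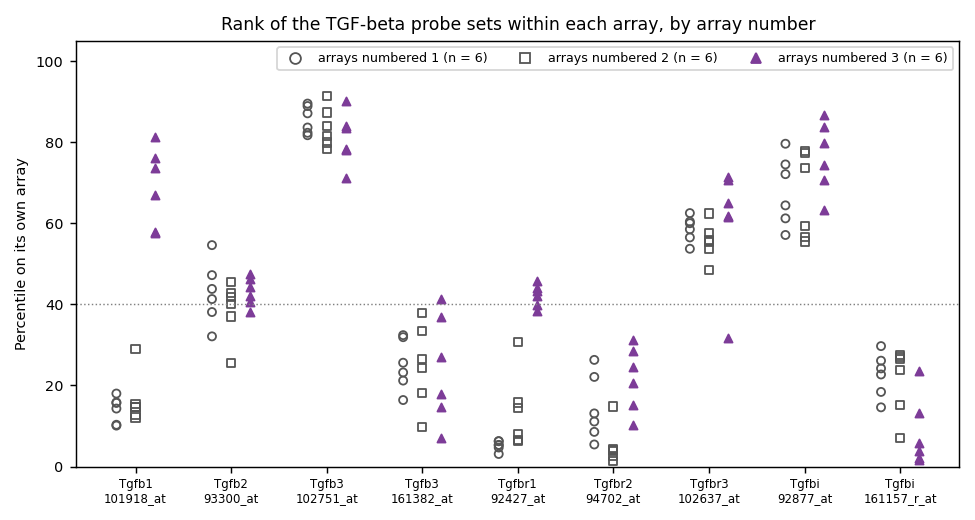
Percentile of each TGF-beta probe set among the probe sets other than controls on its own array (vertical axis, percent), with circles, squares and triangles for the 6 arrays numbered 1, 2 and 3, and a dotted line at the 40th percentile used in the filter. Tgfb1 sits at 57.7 to 81.3 on the arrays numbered 3 and at 10.1 to 28.9 on the others, and Tgfbr1 at 38.3 to 45.8 against 3.1 to 30.8, while the tested probe sets of Tgfb2, Tgfb3, Tgfbr3 and Tgfbi overlap between the numbers.

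Among the ligands, Tgfb1 (probe set 101918_at) is the form that is best known for its release by macrophages and platelets in injured tissue. In extraocular muscle its intensity on arrays 1, 2 and 3 was 58.5, 81.6 and 779 in dko mice, against 60.9, 67.5 and 779 in mdx mice. In leg it was 89.4, 217 and 2372 in dko mice, against 91.3, 89.5 and 1505 in mdx mice. Heart gave 102, 76.2 and 1742 in dko mice, against 81.1, 64.5 and 1156 in mdx mice. The genotypes overlapped in every tissue. The 6 arrays numbered 3 read 779 to 2372 and the other 12 read 58.5 to 217, below the level of the filter, so no fold is given between them. The dko minus mdx difference of Tgfb1 was 0.02 in extraocular muscle (95% interval -2.25 to 2.30), 0.39 in leg (-1.88 to 2.67) and 0.24 in heart (-2.04 to 2.51). Intervals of this width, from the fit without the block, exclude neither a large rise nor a large fall. With the number as a block the intervals were -0.33 to 0.37 in extraocular muscle, 0.04 to 0.74 in leg and -0.11 to 0.59 in heart. The adjusted p in leg was then 0.224. These narrower intervals also rest on the 12 arrays below the level of the filter, where the offset damps changes.

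Tgfb2 (93300_at), the ligand that depends most on betaglycan for receptor binding, read near the brightness filter. Its intensity in extraocular muscle was 499, 389 and 467 in dko mice, against 383, 510 and 301 in mdx mice. In leg it was 572, 455 and 397 in dko mice, against 814, 442 and 490 in mdx mice. In heart it was 255, 336 and 333 in dko mice, against 429, 174 and 405 in mdx mice. The genotypes overlapped in each tissue, and the probe set lay above the 40th percentile on 12 of the 18 arrays. The differences between dko and mdx were 0.14, -0.20 and -0.04 in extraocular muscle, leg and heart, with 95% intervals of -0.38 to 0.66, -0.72 to 0.32 and -0.56 to 0.48. Between tissues, all heart values lay below all leg values in both genotypes, by -0.43 in dko mice (adjusted p = 0.366) and by -0.59 in mdx mice (adjusted p = 0.173), neither of which is a call. With the block these p-values were 0.18 and 0.0687.

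Tgfb3 (102751_at), a ligand best known for palate fusion and scarring responses, was bright on all 18 arrays. In leg its intensity was 4218, 5027 and 4532 in dko mice, against 4127, 2896 and 1930 in mdx mice, so the lowest dko value lay just above the highest mdx value. In extraocular muscle it was 3538, 3625 and 2723 in dko mice, against 2538, 2527 and 2828 in mdx mice, and the third dko array lay within the mdx range. Heart gave 2929, 2329 and 1366 in dko mice, against 2649, 2172 and 1980 in mdx mice, where the dko values span the mdx ones. The leg means were 4592 ± 408 in dko and 2984 ± 1101 in mdx (SD, n = 3), a difference of 0.65 ± 0.27 (SE) on the log2 scale or 1.57-fold, with a 95% interval of 0.08 to 1.23, an unadjusted p of 0.0292 and an adjusted p of 0.68. By array number the leg difference was 0.03, 0.76 and 1.16, so it was nearly absent in the first pair. The differences were 0.30 in extraocular muscle (-0.28 to 0.88) and -0.09 in heart (-0.66 to 0.49). The second Tgfb3 probe set, 161382_at, was above the 40th percentile on 1 array only, and there the genotypes ran the other way in extraocular muscle, with 184, 48.7 and 95.4 in dko mice against 281, 273 and 280 in mdx mice. That difference was -0.72 with an adjusted p of 1 when dim probe sets were tested too, so the 2 probe sets of the gene do not give 1 direction in extraocular muscle. Nor did 161382_at show the leg difference of the bright probe set. Its leg difference was -0.11, with pairs of -0.55, 0.50 and -0.28 and overlapping genotypes, and its heart difference was -0.02.

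**Figure D2:**
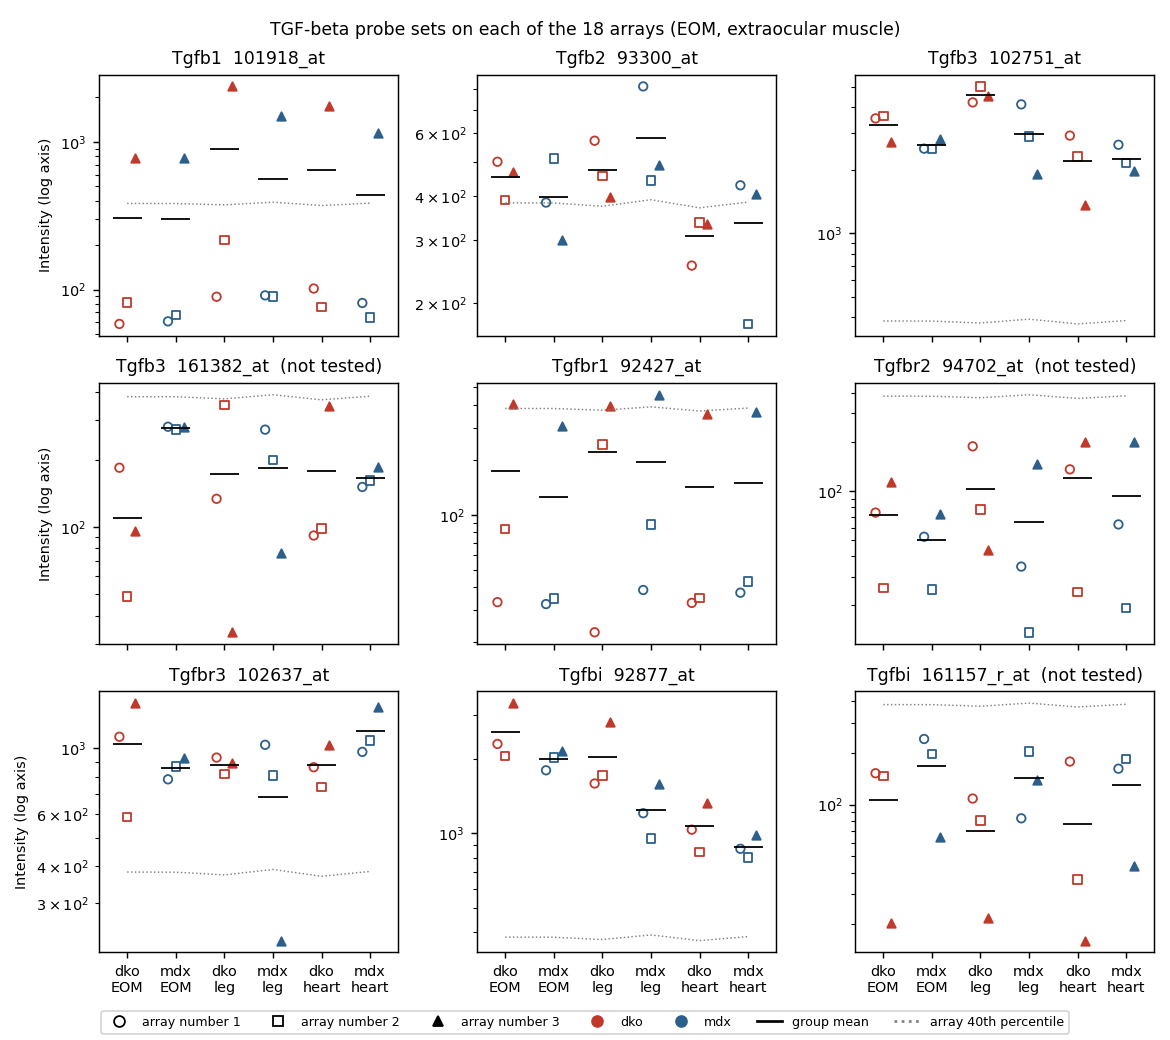
Intensity of the TGF-beta probe sets on each array (vertical axes, log scale), by tissue and by genotype with dko left of mdx; marker shapes give the array number and bars the mean of 3 arrays, with a dotted line at the arrays' 40th percentile. For the tested probe sets of Tgfb3 and Tgfbi the dko values lie above the mdx values in leg, for Tgfbi only just. The dim second probe sets of both genes overlap between the genotypes there. The triangles of Tgfb1 and Tgfbr1 lie above the other arrays in every group.

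Among the receptors, Tgfbr1 (92427_at) encodes the type I kinase. Its intensity in extraocular muscle was 33.2, 83.6 and 406 in dko mice, against 32.4, 34.8 and 308 in mdx mice. In leg it was 22.7, 243 and 393 in dko mice, against 38.7, 88.3 and 455 in mdx mice. In heart it was 32.9, 35.1 and 356 in dko mice, against 37.4, 43 and 366 in mdx mice. All genotype pairs overlapped. The arrays numbered 3 read 308 to 455 and the others 22.7 to 243, below the level of the filter. The differences between dko and mdx were 0.20, 0.14 and -0.04 in extraocular muscle, leg and heart, with 95% intervals of -1.05 to 1.44, -1.10 to 1.38 and -1.28 to 1.21. With the number as a block the intervals were -0.18 to 0.58, -0.24 to 0.52 and -0.42 to 0.34.

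Tgfbr2, the type II receptor that binds the ligand, did not pass the brightness filter. Its only probe set 94702_at read 13.7 to 201 and lay below the 40th percentile on all 18 arrays, so no test was made. The group means were 71.4, 103 and 120 in dko extraocular muscle, leg and heart, against 50.2, 64.9 and 94.3 in mdx, and the genotypes overlapped in each tissue. A low reading of 1 probe set does not show that the transcript is absent.

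Tgfbr3 (102637_at), which encodes betaglycan, read 1091, 586 and 1417 in dko extraocular muscle, against 785, 866 and 929 in mdx. In leg it read 929, 818 and 892 in dko mice, against 1025, 808 and 225 in mdx mice. In heart it read 862, 740 and 1025 in dko mice, against 971, 1062 and 1378 in mdx mice. The leg difference of 0.44 (95% interval -0.28 to 1.17) rested on the third mdx array, since the 3 pairs gave -0.12, 0.01 and 1.43 and the difference was -0.05 without the arrays numbered 3. In heart all 3 pairs were lower in dko mice, by -0.15, -0.44 and -0.38, and the difference of -0.32 had an interval of -1.04 to 0.40. In neither tissue was it a call.

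Tgfbi (92877_at) was bright on all 18 arrays and was the member with the most calls. Its intensity in extraocular muscle was 2294, 2052 and 3350 in dko mice, against 1797, 2027 and 2149 in mdx mice. In leg it was 1590, 1713 and 2802 in dko mice, against 1207, 954 and 1586 in mdx mice. Heart gave 1036, 843 and 1327 in dko mice, against 868, 801 and 983 in mdx mice. The genotypes did not overlap in leg, by a margin of 1590 against 1586, and overlapped in the other tissues. Each of the 9 dko arrays read higher than the mdx array of the same tissue and number, with log2 differences in extraocular muscle of 0.33, 0.02 and 0.60. The leg pairs gave 0.35, 0.75 and 0.76, and the heart pairs 0.22, 0.06 and 0.38. The leg means were 2035 ± 667 in dko and 1249 ± 318 in mdx (SD, n = 3), a difference of 0.62 ± 0.25 (SE) or 1.54-fold, with a 95% interval of 0.09 to 1.15 and an adjusted p of 0.631. With the number as a block the interval was 0.28 to 0.96 and the adjusted p was 0.0776, which also misses the threshold. The average over the tissues was 0.38 (0.08 to 0.69, adjusted p = 0.687), and with the block 0.19 to 0.58 with an adjusted p of 0.0768. The second Tgfbi probe set, 161157_r_at, read 16.1 to 241 and lay below the 40th percentile on every array. Its dko minus mdx differences were -0.29, -0.38 and -0.31 in extraocular muscle, leg and heart, opposite in sign to those of the bright probe set, each with an adjusted p of 1 when dim probe sets were tested too.

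Across the members, none of the 6 tested passed the test between dko and mdx in any tissue by limma, with or without the block. In extraocular muscle 0.0225% of all probe sets tested were called (0.158% with the block), in leg 0.0563% (1.2% with the block), in heart 0% in both fits, and in the average over tissues 0.09% (0.788% with the block). The members' count of 0 thus stands beside a low share of calls over the whole array. At an unadjusted p under 0.05 there were 0 members in extraocular muscle, 2 in leg (Tgfb3 and Tgfbi) and 0 in heart, where 2.21%, 6.26% and 1.46% of all probe sets passed. In the average over tissues there was 1, Tgfbi, beside 4.95% of all probe sets. With the block these counts were 0 in extraocular muscle, 3 in leg (Tgfb1 as well), 0 in heart and 3 in the average (Tgfb1, Tgfb3 and Tgfbi). The share of all probe sets at this unadjusted threshold was not computed for the block. In leg 2 of 6 members, Tgfb3 and Tgfbi, did not overlap and were higher in dko mice, against 5.02% of all probe sets, and 0 were lower without overlap, against 4.93%. There was no such member in extraocular muscle, where 2.99% of all probe sets were higher and 2.66% lower without overlap, or in heart, where the shares were 1.76% and 2.16%. The median member difference was 0.18 in extraocular muscle, 0.42 in leg and -0.04 in heart, beside -0.00623, -0.0399 and -0.012 over all probe sets tested. Without the arrays numbered 3, again 0 members were called in each tissue, and 0 of the 8888 probe sets.

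**Figure D3:**
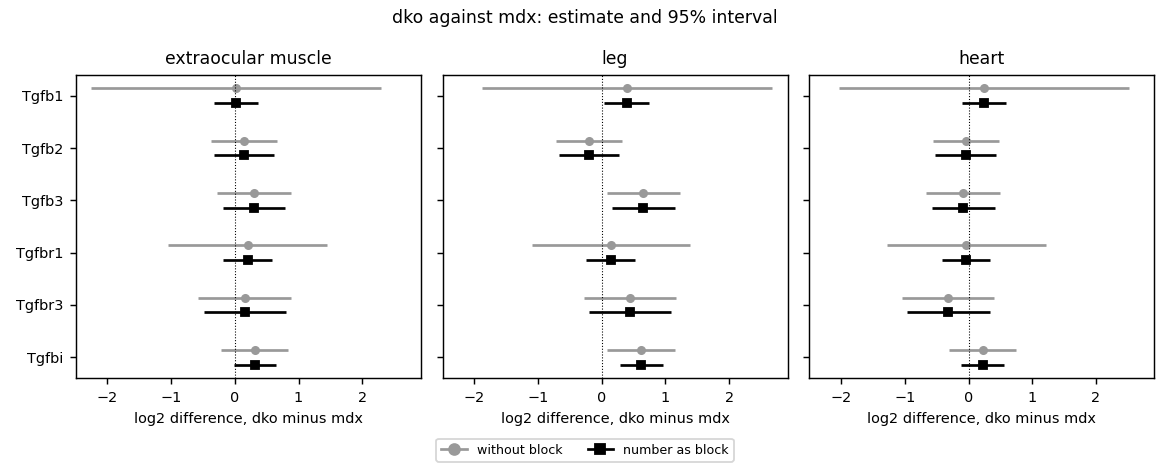
Difference between dko and mdx on the log2(intensity + 166.7) scale (horizontal axis) for the 6 TGF-beta probe sets tested, in extraocular muscle, leg and heart, with 95% intervals from the fits without and with the replicate block. The leg intervals of Tgfb3 and Tgfbi lie above 0 in both fits, the intervals of Tgfb1 and Tgfbr1 are wide without the block, and 0 of the 6 passed the adjusted threshold in any tissue.

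Whether the genotype difference itself changed with the tissue was tested as an interaction. None of the 6 members was called in any of the 3 pairs of tissues by limma, where 0% of all probe sets were called in each (with the block 0.0338% for extraocular muscle minus leg, 0.0675% for heart minus leg and 0% for extraocular muscle minus heart). At an unadjusted p under 0.05, 0 members passed without the block in the 3 pairs, and 1, Tgfb3 in heart minus leg, passed with it. That difference of differences was -0.74 (95% interval -1.55 to 0.08), with an adjusted p of 0.433 with the block. For Tgfbi it was -0.40 (-1.15 to 0.34) in heart minus leg and -0.31 (-1.05 to 0.44) in extraocular muscle minus leg.

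Between the tissues, Tgfbi stood in the order extraocular muscle, leg, heart in both genotypes. In dko mice the means were 2565 ± 691, 2035 ± 667 and 1069 ± 244, and in mdx mice 1991 ± 179, 1249 ± 318 and 884 ± 92.3 (SD, n = 3 each). Extraocular muscle exceeded heart with no overlap, by 1.13 in dko mice (2.2-fold, 95% interval 0.61 to 1.66, adjusted p = 0.00782) and by 1.04 in mdx mice (2.05-fold, 0.51 to 1.57, adjusted p = 0.0156). It was the only one of the 6 members called in these comparisons, in which 7.66% of all probe sets were called in dko mice and 7.05% in mdx mice. The mdx call was lost when mdx heart array 1 or 2 or mdx extraocular array 2 or 3 was left out (adjusted p of up to 0.0611), and with only the 2 groups fitted the dko p was 0.0652.

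The steps between neighbours in that order were smaller. Heart was lower than leg by -0.81 in dko mice (1.75-fold, -1.34 to -0.28, adjusted p = 0.0475), with no overlap, and by -0.41 in mdx mice (-0.94 to 0.12, adjusted p = 0.413), with overlap. The dko call did not hold after 75th-percentile scaling (adjusted p = 0.0929) or quantile normalization (0.0922), with no filter on dim probe sets (0.0526), with only the 2 groups fitted (0.182), without dko heart array 1 or 2, or without dko leg array 2 or 3 (up to 0.218). Extraocular muscle exceeded leg by 0.32 in dko mice (-0.20 to 0.85, adjusted p = 0.852), with overlap, and by 0.63 in mdx mice (0.10 to 1.16, adjusted p = 0.238), without. With the array number as a block the mdx step was a call (adjusted p = 0.0115), while the dko step was not (0.222). The mdx call of the block was lost in 2 of the 3 fits that left out a replicate number (adjusted p of up to 0.272). For heart against leg in mdx mice the blocked interval was -0.72 to -0.09 (adjusted p = 0.0595), and for extraocular muscle against leg in dko mice it was 0.01 to 0.64, so these neighbours missed the adjusted threshold while all 3 pairs ran the same way in each.

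Tgfb3 had its highest values in dko leg. Heart was lower than leg in dko mice by -1.06 (2.08-fold, 95% interval -1.64 to -0.48, adjusted p = 0.0171), with no overlap (1366 to 2929 in heart, against 4218 to 5027 in leg). In mdx mice the same difference was -0.32 (-0.90 to 0.26, adjusted p = 0.621), with overlap. The dim second probe set 161382_at gave 0.06 in dko mice and -0.03 in mdx mice for heart minus leg. The dko call was lost without dko leg array 2 or dko heart array 3, and without all arrays numbered 3 the difference was -0.78 (adjusted p = 0.0624). The call was also lost with only the 2 groups fitted (adjusted p = 0.0926). Of the 3 blocked fits that left out a replicate number, 1 lost it (0.0603). Extraocular muscle lay between, -0.47 from leg (adjusted p = 0.656, without overlap) and 0.59 from heart (adjusted p = 0.263, with overlap) in dko mice. In mdx mice the 3 tissues overlapped, with differences of -0.11, -0.32 and 0.21 for extraocular muscle minus leg, heart minus leg and extraocular muscle minus heart.

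In heart against leg, 2 of 6 members (Tgfb3 and Tgfbi) were called in dko mice, where 10.7% of all probe sets were called, and 0 of 6 in mdx mice, where 9.97% were. In extraocular muscle against leg 0 of 6 were called in each genotype, beside 2.14% of all probe sets in dko mice and 4.02% in mdx mice. At an unadjusted p under 0.05 the counts in mdx mice were 2 for heart against leg (Tgfb2 and Tgfbr3) and 1 for extraocular muscle against leg (Tgfbi), beside 20.6% and 13.6% of all probe sets. In dko extraocular muscle against leg the count was 0, beside 10.4%. With the block that count was 3 (Tgfb1, Tgfb3 and Tgfbi). In mdx mice the blocked counts were 3 for heart against leg (Tgfb2, Tgfbr3 and Tgfbi) and 1 for extraocular muscle against leg (Tgfbi). The share of all probe sets was not computed for these blocked counts. The Tgfbr3 difference of heart against leg in mdx mice rested on the arrays numbered 3, since the pairs gave -0.07, 0.33 and 1.98. With the block, 1 member (Tgfbi) was called in mdx extraocular muscle against leg, beside 12.4% of all probe sets, and 0 in mdx heart against leg (22.8%) and in dko extraocular muscle against leg (7.58%). The block left 2 members called in dko heart against leg (23.5%) and 1 in extraocular muscle against heart in each genotype (18.6% in dko and 17.7% in mdx mice). Within a genotype, the comparisons that name the same tissue share its arrays.

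**Figure D4:**
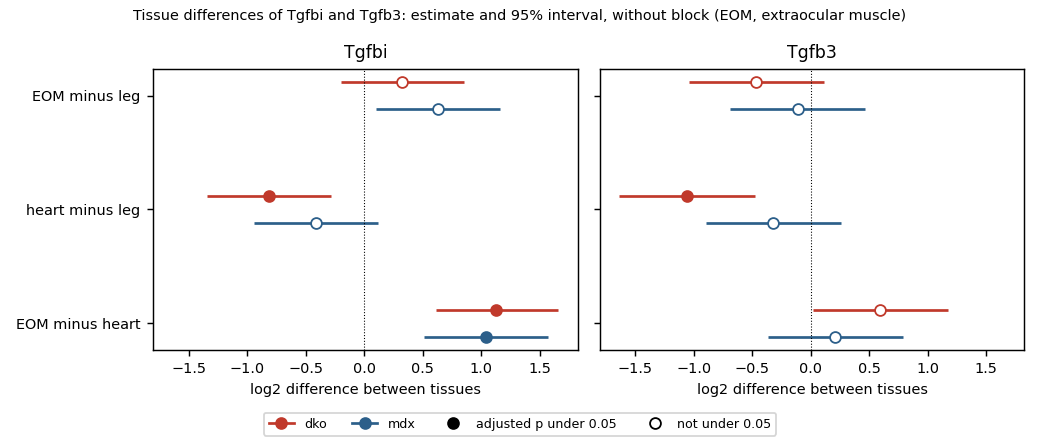
Differences between tissues on the log2(intensity + 166.7) scale (horizontal axis) for Tgfbi and Tgfb3, with 95% intervals from the fit without a block, dko above mdx; filled points have an adjusted p under 0.05. Tgfbi was 1.13 and 1.04 higher in extraocular muscle than in heart in dko and mdx mice, and heart lay below leg in dko mice for both genes.

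The other genes of the pathway were grouped by their step. Of 13 genes of latency and activation, which hold the ligand in the matrix or release it, 8 were on the array and tested. Of 10 co-receptors and signal transducers 7 were tested, and of 12 inhibitors 8 were on the array and 7 tested. In each of these groups 0 genes were called between dko and mdx in any tissue, with or without the block. Their medians in leg were -0.14, -0.09 and 0.04, beside -0.0399 over all probe sets. The related activin, BMP and GDF branch had 18 of 24 genes tested, with 0 called in any tissue and a leg median of -0.09.

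Known TGF-beta target genes, without Tgfbi, were the group in which genotype calls were made. In leg 1 of 20 genes tested rose in dko mice and 0 fell, and with the block 4 rose and 0 fell, beside 0.045% and 1.01% of all probe sets called higher. The median difference was 0.58 in leg, 0.10 in extraocular muscle and 0.21 in heart, and 18 of the 20 were positive in leg, 13 in extraocular muscle and 14 in heart, against 44.7%, 48.8% and 47.5% of all probe sets. Postn, which encodes the matrix protein periostin, rose in leg to 21417 ± 4374 in dko mice, against 8938 ± 1858 in mdx mice (SD, n = 3), by 1.24 with an adjusted p of 0.0475. A further 3 genes were calls in the blocked fit alone. These were Bgn, encoding the proteoglycan biglycan (27097 ± 11624 in dko and 13797 ± 5037 in mdx leg, 0.94, adjusted p = 0.017 with the block and 0.41 without), Tsc22d1, a transcriptional regulator (8110 ± 1636 in dko and 4470 ± 1009 in mdx leg, 0.84, 0.0289 and 0.469), and Fstl1, a secreted glycoprotein (3488 ± 1248 in dko and 2059 ± 1091 in mdx leg, 0.76, 0.0327 and 0.79). The fibrillar collagen genes Col1a1, Col1a2 and Col3a1 differed by 0.07, 0.44 and 0.43 in leg and were not called. In the average over tissues Postn rose by 0.79 (adjusted p = 0.0285), and Lox, the collagen cross-linking enzyme, differed by 1.06 (0.0614, and 0.0422 with the block). Without the arrays numbered 3 no probe set of any kind was called in leg. The list overlaps matrix genes whose changes in these data were known when it was drawn up, so it is not independent evidence of its direction.

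Marker lists of other cells are given beside these values. Over all probe sets tested, 44.7% were positive in leg, 48.8% in extraocular muscle and 47.5% in heart. The shares called were 0.0563% in leg (1.2% with the block), 0.0225% in extraocular muscle (0.158%) and 0% in heart in both fits. The summed intensity of 18 macrophage markers was 73550 to 138245 in dko leg, against 40119 to 73354 in mdx leg, and 17 of 17 tested were positive, with a median of 0.90 and 0 called (4 with the block). In extraocular muscle the sum was 64320 to 68187 in dko mice, against 28326 to 36087 in mdx mice, with 16 of 17 positive and 1 called (3 with the block). In heart it was 40974 to 44288 in dko mice, against 40926 to 44012 in mdx mice, with 7 of 17 positive. Summed over 15 fibroblast markers, the intensity was 86789 to 114633 in dko leg, against 52805 to 91746 in mdx leg, and 14 of 15 were positive, with a median of 0.28 and 0 called (4 with the block). In extraocular muscle the fibroblast sum was 88880 to 129848 in dko mice, against 95174 to 110184 in mdx mice, and in heart 64567 to 84554 in dko mice, against 66560 to 85497 in mdx mice. The fibroblast sums thus overlapped between the genotypes in every tissue. The macrophage sums did not overlap in extraocular muscle, and in leg they were apart only by 73550 against 73354. In leg most markers of both lists were positive, and a difference between the 2 lists was not tested. Summed over 10 endothelial markers, the intensity was 15277 to 18407 in dko leg, against 17919 to 21144 in mdx leg, with 2 of 10 positive, a median of -0.24 and 0 called in either fit. In extraocular muscle 0 of 10 were positive (median -0.19) and in heart 3 of 10 (median -0.10), with 0 called in either fit. Of the macrophage markers, Fcer1g was below the 40th percentile on all arrays of every group, and Itgam and Fcgr3 on those of mdx leg. In whole muscle, more cells of a type and more RNA per cell cannot be told apart, and the part of these cells in the Tgfb3, Tgfbi and target gene values was not tested.

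**Figure D5:**
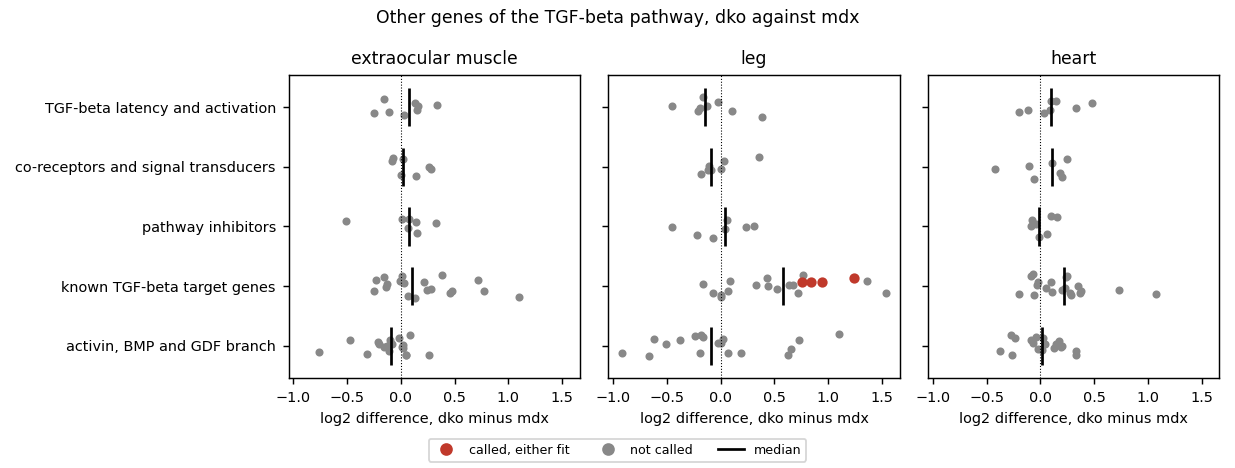
Difference between dko and mdx on the log2(intensity + 166.7) scale for every tested gene of the 5 pathway lists, in extraocular muscle, leg and heart, with the list median and the calls marked. The target genes centre on 0.58 in leg, against medians between -0.14 and 0.04 for the other 4 lists, and Postn is the leg gene called without the block.

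Between tissues, some of the target genes differed between heart and leg. In heart against leg 7 of 20 were lower and 1 was higher in dko mice, and 6 were lower and 2 higher in mdx mice, beside 10.7% and 9.97% of all probe sets called in either direction. With the block the counts were 9 lower and 1 higher in dko mice, and 8 lower and 3 higher in mdx mice. The genes with the smallest blocked p were Postn, Col1a1, Col1a2 and Col3a1 in both genotypes. For Col1a2 the heart mean was 3632 ± 971, against 18292 ± 5336 in leg, in dko mice (-2.27, adjusted p = 0.000365), and 3126 ± 767, against 14213 ± 7381, in mdx mice (-2.03, adjusted p = 0.00103). Among the co-receptors, Eng, the endoglin gene of endothelial cells, was higher in heart by 1.73 in both dko mice (adjusted p = 0.00225) and mdx mice (0.0024). Summed over 10 endothelial markers, Eng included, the intensity was 32434 to 45135 in dko heart, against 15277 to 18407 in dko leg, and 35904 to 52817 in mdx heart, against 17919 to 21144 in mdx leg. Of the activin branch, Mstn, which encodes the muscle growth inhibitor myostatin, was below the 40th percentile on all heart arrays, so its differences are of limited use in size. It was lower in heart, with 242 ± 48.4 against 729 ± 131 in leg in dko mice (-1.13, adjusted p = 0.00986) and 191 ± 9.45 against 1298 ± 431 in mdx mice (-1.99, adjusted p = 7.77e-05).

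The genes whose signal over the 18 arrays was most like each member were found by Pearson correlation of log2 values, as a description, since the points share tissue, genotype and array number. Tgfbi was most like Stk38, Armcx2 and S100a6 (r of 0.920, 0.918 and 0.911). Tgfb3 was most like Morf4l2, Dlk1 and Tnfrsf1b (0.887, 0.874 and 0.872). Tgfb2 was most like Gpd1, Tgif2 and Exoc7 (0.849, 0.811 and 0.770), and Tgfbr3 like Erlin1, Slc12a4 and Cntrl (0.725, 0.718 and 0.701). For Tgfb1 the 3 were Eif4ebp2, Trir and Hspb2 (0.985, 0.956 and 0.955), and for Tgfbr1 they were Fntb, Rabggta and Eif4ebp2 (0.955, 0.953 and 0.949). All of these last genes were, like Tgfb1 and Tgfbr1, above the other 12 arrays on every array numbered 3. Among the members themselves Tgfb1 and Tgfbr1 correlated at 0.94, and no other pair exceeded 0.42 (Tgfb2 with Tgfb3). Tgfb3 and Tgfbi, the members with non-overlapping leg values, correlated at 0.37.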

How the data were processed

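Total RNA was hybridised to Affymetrix mouse arrays, 18 in all, per the labels. The authors deposited 1 intensity per probe set; the software, background step and detection calls are not given in the sources used here, and equal 2% trimmed means show that arrays were scaled. Gene symbols come from the platform annotation. With R 4.3.3 and limma 3.58.1, log2(intensity + 166.7) was fitted over 6 groups of tissue and genotype, where 166.7 is the median of the arrays' 25th percentiles. Dim probe sets were left out as stated, and 66 controls. The spread had 12 residual degrees of freedom and 3.52 prior ones. The block fit used the replicate number within tissue for genotype comparisons and a common number for tissue comparisons. The script was tested on simulated data with known changes. Of the lists, at most 4 genes per list and comparison are named, those with the smallest adjusted p among the calls of either fit, besides the members and Utrn; the 3 collagens in leg were added after their values were seen. A gene with several probe sets is represented by the brightest. The members and lists were chosen with earlier results of these data known. The number of arrays limits the precision. Alternatives were another offset, no filter, other scalings, other sample sets and leaving out each array.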

Additional observations from a re-analysis of the deposited data

Results flagged for a closer look

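Tgfbr1 differed between dko and mdx in opposite directions in extraocular muscle and heart: in extraocular muscle all 3 numbered pairs were higher in dko mice (0.01, 0.31 and 0.27 on the log2 scale), and in heart all 3 were lower (-0.03, -0.06 and -0.03). The difference of differences was 0.23 by limma, with an adjusted p of 0.9999, and 0.93 with the replicate block, so it is no call. The first and second arrays of these groups read 32.4 to 83.6, below the 40th percentile. The third mdx arrays were also below it, at 308 in extraocular muscle and 366 in heart, so every mdx array compared here was below it. Groups of 3 arrays are too small for a single array to be picked out as far from its group.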

How the results depend on the processing

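The counts of 0 members called between dko and mdx held under every alternative run, in each tissue, in the average and in the differences between tissues. In mdx extraocular muscle against leg the count was 0, but 1 with the replicate block, and 1 with the block without replicate 3. In dko heart against leg the count was 2. It was 1 with no filter, with 75th-percentile scaling, with quantile normalization, without the arrays numbered 3 (chosen after seeing the data) and with the block without replicate 2, 0 with only the groups compared, and 0 to 2 with 1 array left out. In dko extraocular muscle against heart it was 1, but 0 with only the groups compared. In mdx extraocular muscle against heart it was 1, and 0 to 1 with 1 array left out. The replicate block changed no other call of a member. Fewer arrays leave fewer degrees of freedom; otherwise the cause of these losses was not tested. Of uncalled dko minus mdx differences, without the arrays numbered 3 and with the block without replicate 3, Tgfbr3 turned to -0.03 in extraocular muscle, -0.05 in leg and -0.12 in the average, Tgfb2 to -0.0042 in extraocular muscle and 0.03 in heart, and Tgfb3 to 0.12 in heart. With the block without replicate 2, Tgfb1 turned to -0.01 in extraocular muscle, and Tgfbr1 to -0.13 in leg and -0.01 in the average. With the block without replicate 1, Tgfb2 turned to 0.18 in heart and 0.05 in the average. Quantile normalization turned Tgfbr1 to 0.01 and Tgfb2 to 0.0048 in heart. With 1 array left out the ranges that crossed 0 were, for Tgfb1, -0.64 to 0.70 in extraocular muscle, -0.61 to 1.29 in leg, -0.73 to 1.06 in heart and -0.12 to 0.52 in the average. For Tgfbr1 they were -0.26 to 0.61, -0.20 to 0.62, -0.50 to 0.42 and -0.05 to 0.26. For Tgfbr3 they were -0.08 to 0.46 in extraocular muscle, -0.04 to 0.76 in leg and -0.07 to 0.20 in the average. For Tgfb2 they were -0.33 to 0.01 in leg, -0.30 to 0.10 in heart and -0.12 to 0.04 in the average, and for Tgfb3 -0.31 to 0.20 in heart. The bright Tgfbi probe set kept its sign in every tissue under the alternatives run. With a stricter filter (above the array median in all arrays of a group), Tgfb1, Tgfb2 and Tgfbr1 were no longer tested. No scaling moved the median of all probe sets by as much as 0.1. With 3 arrays a group, dim probe sets and no detection calls, small differences of these genes could not be shown.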
